A study of Mus musculus with 30 samples.

Results

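The 40 genes described here encode nucleolar proteins and ribosome biogenesis factors, and they were taken by symbol from the list Ncl, Rrs1, Npm1, Npm3, Nop56, Nop58, Nop2, Nop14, Nop16, Nop10, Fbl, Dkc1, Gar1, Nhp2, Nolc1, Wdr12, Wdr43, Wdr74, Bop1, Pes1, Ebna1bp2, Rrp9, Rrp12, Rrp1b, Bysl, Noc2l, Noc3l, Noc4l, Ddx21, Ddx18, Utp20, Polr1a, Polr1b, Mybbp1a, Ppan, Gnl3, Nob1, Tsr1, Heatr1 and Nip7. All 40 were found among the 24063 gene names of the bulk table and among the 27933 genes of the single-cell table. The tissue was mouse bone marrow. Mettl3KO mice carried Mx1-Cre with Mettl3 fl/fl, and WT mice carried Mettl3 fl/fl without Cre, so the floxed alleles were shared by both groups. Both were taken 3 weeks after pIpC, the double-stranded RNA that switches on the interferon-driven Mx1-Cre. Mx1-Cre also acts in interferon-responsive cells outside blood formation. Bulk RNA-seq covered 4 populations sorted from the Lin-;Sca1+;c-Kit+ fraction, with 3 Mettl3KO and 3 WT libraries each. HSC were CD150+;CD48-, and the multipotent progenitors were MPP1 if CD150-;CD48-, MPP2 if positive for both (CD150+;CD48+) and MPP4 if CD48+ alone (CD150-;CD48+). Droplet single-cell RNA-seq (10x) covered Lin-;c-Kit+ (LK) cells, the broader progenitor compartment, from 3 Mettl3KO and 3 WT libraries. Per the labels, each library of a group was made from another mouse.

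Ribosomes are built in the nucleolus. RNA polymerase I transcribes the ribosomal RNA precursor, small nucleolar ribonucleoproteins (snoRNPs) guide its 2′-O-methylation (box C/D) and pseudouridylation (box H/ACA), and the small subunit processome and the large subunit assembly factors fold, cut and export the 40S and 60S precursors. Many of these genes are targets of Myc and rise when cells enter the cell cycle. Quiescent stem cells are known for low protein synthesis. Mettl3 is the catalytic subunit of the complex that writes m6A into messenger RNA, a mark linked to the turnover of many transcripts. PolyA libraries as used here report the messenger RNAs of these factors, not ribosomal RNA production.

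Levels are given as CPM, counts scaled to a library's total after TMM adjustment. Bulk libraries held 28896498 to 55276836 counts and 10x libraries 28546967 to 44159208 UMIs in 24396 cells kept of 24693. Of 24389 distinct cell barcodes, 303 were found in 2 or more 10x libraries. Mettl3 itself was lower in Mettl3KO libraries than in WT libraries in every comparison of sorted cells. Its log2 fold change was -1.35 ± 0.18 (SE) in HSC, -1.49 ± 0.18 in MPP1, -1.08 ± 0.18 in MPP2 and -0.77 ± 0.18 in MPP4, and -0.75 ± 0.10 in LK cells, each with an adjusted p under 0.05 by edgeR. Which exons were floxed is not stated in the labels, so a 10x tag from the 3′ end may lie outside them and is then no check of the deletion. The sorted cells expressed their own marker list: the 11 HSC/MPP marker genes summed to 4425 to 5423 CPM in Mettl3KO HSC, against 6175 to 6663 CPM in WT HSC, with no marker at 0. Libraries standing apart were MPP1 Mettl3KO library 2, with 68772 CPM over 8 neutrophil markers, against 109 to 624 in the other MPP1 Mettl3KO libraries and 587 to 4212 CPM in MPP1 WT libraries, MPP2 WT library 1, with 5482 CPM over the macrophage markers, against 280.5 to 798 in MPP2 Mettl3KO libraries and 272 and 922 CPM in the other MPP2 WT libraries, and LK WT library 3, which held 1053 of the 1292 neutrophil-like cells. Call counts and medians in MPP1, MPP2 and LK cells are also given without them. Rn45s, the ribosomal RNA precursor, took 5.49% of the counts in HSC Mettl3KO library 2. It took 5.12% in MPP1 Mettl3KO library 2 and 5.50% in MPP2 Mettl3KO library 2, against 1.65% to 3.61% in every other bulk library. The part of this difference in the results was not tested.

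Promoter windows are shown for 4 members that were higher in Mettl3KO cells of at least 1 sorted population, a pair without and a pair with the letters CACGTG. This sequence is the canonical E-box, the element that Myc and its relatives bind, and its copy is in capitals. The windows are from RefSeq (GRCm38.p6), run 5′ to 3′ on the gene's strand, and cover 250 bases before to 50 bases after the annotated start.
Ncl chr1:86359406-86359705 minus: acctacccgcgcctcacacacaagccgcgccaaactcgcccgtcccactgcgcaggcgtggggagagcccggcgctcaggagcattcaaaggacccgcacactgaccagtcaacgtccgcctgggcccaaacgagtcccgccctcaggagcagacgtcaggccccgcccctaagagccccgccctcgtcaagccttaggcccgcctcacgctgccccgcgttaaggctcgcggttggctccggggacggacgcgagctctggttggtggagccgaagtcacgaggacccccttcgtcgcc
Ddx21 chr10:62602249-62602548 minus: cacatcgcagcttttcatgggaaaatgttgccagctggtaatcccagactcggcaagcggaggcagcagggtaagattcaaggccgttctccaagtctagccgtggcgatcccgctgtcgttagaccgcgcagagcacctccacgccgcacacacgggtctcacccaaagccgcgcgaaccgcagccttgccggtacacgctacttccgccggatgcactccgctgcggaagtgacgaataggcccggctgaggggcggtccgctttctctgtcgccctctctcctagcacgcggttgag
Nop2 chr6:125131633-125131932 plus: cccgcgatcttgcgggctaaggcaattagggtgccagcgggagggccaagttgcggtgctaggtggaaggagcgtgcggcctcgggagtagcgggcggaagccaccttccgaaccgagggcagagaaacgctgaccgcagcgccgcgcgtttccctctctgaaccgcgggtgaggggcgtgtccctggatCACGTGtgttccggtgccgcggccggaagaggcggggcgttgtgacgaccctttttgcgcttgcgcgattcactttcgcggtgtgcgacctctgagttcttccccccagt
Utp20 chr10:88826765-88827064 minus: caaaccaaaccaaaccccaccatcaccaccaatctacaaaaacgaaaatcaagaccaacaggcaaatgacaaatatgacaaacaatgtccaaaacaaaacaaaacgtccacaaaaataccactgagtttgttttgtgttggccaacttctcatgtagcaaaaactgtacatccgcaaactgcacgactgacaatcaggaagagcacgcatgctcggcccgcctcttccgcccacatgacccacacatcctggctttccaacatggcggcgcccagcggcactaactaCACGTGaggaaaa
The first base of the motif lies 60 bases before the start in Nop2 and 37 bases after it in Utp20. The Ncl window lies wholly upstream of the gene's 5′ end in the GENCODE annotation. RefSeq promoters were matched for 35 of the 40 members, and CACGTG, which reads the same on both strands, occurred in 6 of them (17.1%), namely Nop2, Wdr43, Pes1, Utp20, Mybbp1a and Tsr1. The same letters occurred in 2187 of 27025 gene windows of that length (8.09%). The other E-box forms CACATG or CATGTG, which are each other's reverse complement, occurred in 8 of the 35 (22.9%) and in 15.9% of all windows. These are matches of letters, not bound sites.

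Ncl and Rrs1 were the 2 members higher in Mettl3KO cells of all 4 sorted populations, and 12 of the 15545 genes tested had such calls in all 4. Over the 40 members, all of which passed the filter on low counts, 8 were higher in at least 1 population, 1 was lower in 1 population and 31 passed the test in none. The members called higher were 4 in HSC, 6 in MPP1, 3 in MPP2 and 3 in MPP4, with calls taken at an adjusted p (Benjamini-Hochberg) under 0.05 in the quasi-likelihood test of edgeR. Of all genes tested, 3.66% were higher in HSC, 4.74% in MPP1, 1.51% in MPP2 and 1.03% in MPP4, against 10%, 15%, 7.5% and 7.5% of members. Nop58 in MPP1 was the single member lower, where 3.89% of all genes were lower. Of the 15545 genes tested, 387 were lower in HSC, 150 in MPP2 and 327 in MPP4. Without MPP1 Mettl3KO library 2, 9 members were higher in MPP1 and 2 lower (Nop58 and Npm1), where 5.9% of all genes were higher and 5.1% lower. Without MPP2 WT library 1, Ncl and Rrs1 were the 2 members higher in MPP2, where 0.549% of all genes were. In a bulk library, fewer cells of a type and less RNA per cell cannot be told apart.

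**Figure D1:**
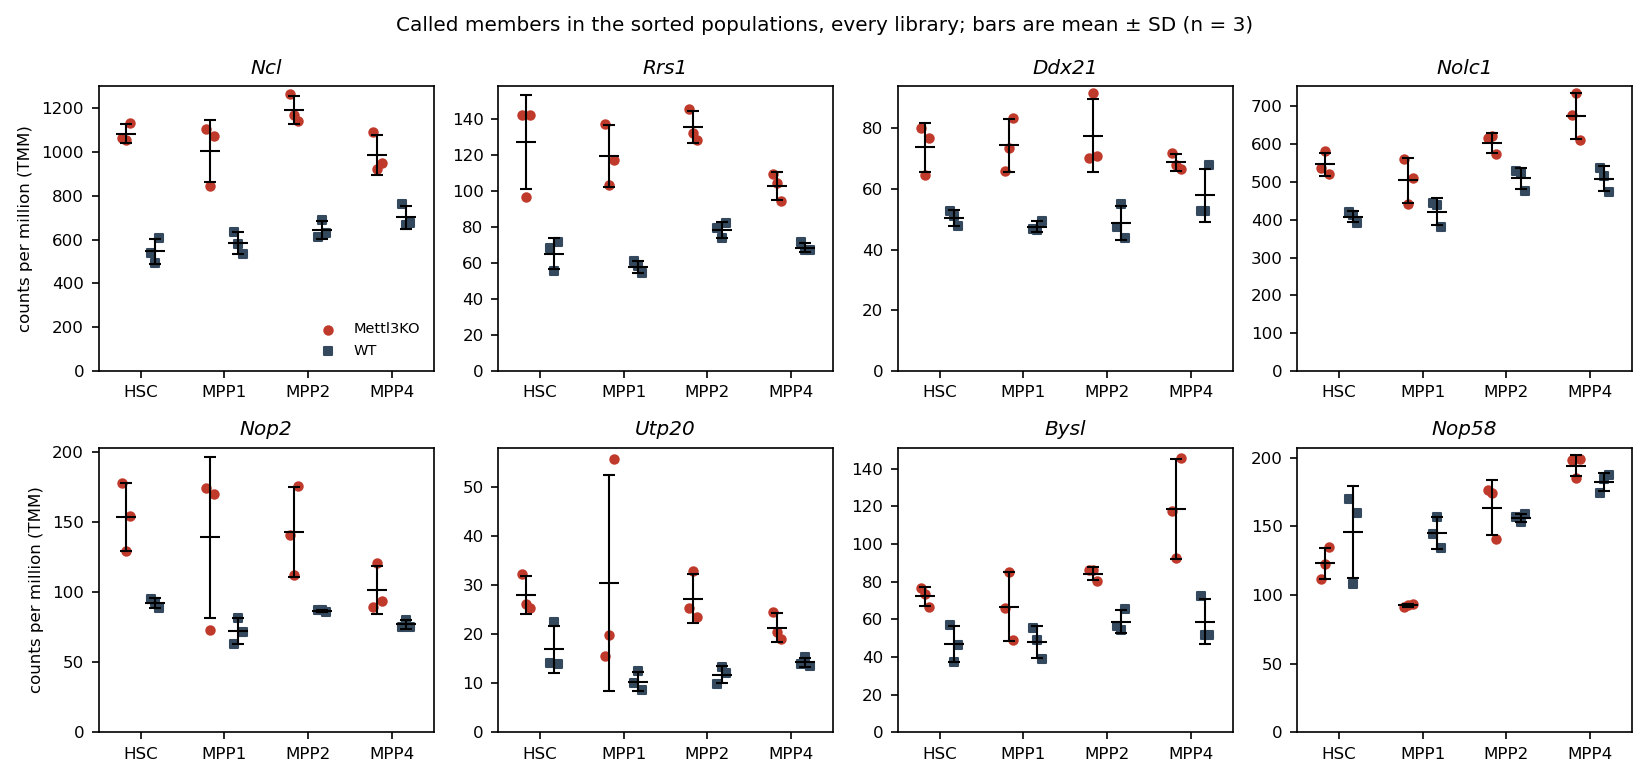
CPM on TMM-adjusted library totals in HSC, MPP1, MPP2 and MPP4 for the called members, without Rrp1b. Mettl3KO stands left of WT, each point is a library and bars are the mean ± SD (n = 3). Ncl and Rrs1 separate the genotypes in all 4 populations, while Nop2 and Utp20 spread widely among MPP1 Mettl3KO libraries.

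Per kilobase of merged exons, Npm1 had the highest level of the 40 in WT HSC (278 ± 92.0 CPM per kb, SD, n = 3), followed by Nolc1 (103 ± 3.61) and Nop10 (92.1 ± 30.9), and Utp20 the lowest (1.66 ± 0.472). Ncl stood at 53.6 ± 5.49 CPM per kb there, over an annotated exon length of 10.2 kb that joins all its isoforms.

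Ncl and Nolc1 were the called members among the 6 nucleolar chaperones and organizers. Ncl (nucleolin, chr1:86344719-86359400, minus strand), an RNA-binding protein that loosens nucleolar chromatin and aids early pre-rRNA folding, had 1063, 1056 and 1134 CPM in Mettl3KO HSC, against 538, 495 and 606 CPM in WT HSC. Every Mettl3KO library was above every WT library, at a log2 fold change of 0.99 ± 0.13 (SE) and an edgeR adjusted p of 9.2e-05. In MPP1, Ncl had 1104, 844 and 1072 CPM in Mettl3KO and 634, 582 and 534 CPM in WT, a log2 fold change of 0.79 ± 0.13. MPP2 gave 1264, 1168 and 1144 CPM in Mettl3KO, against 613, 689.5 and 630.0 CPM in WT (log2 fold change 0.89 ± 0.13). These 2 populations again showed no overlap between genotypes. MPP4 gave 1092, 923 and 949 CPM in Mettl3KO, against 762, 665 and 677 CPM in WT (log2 fold change 0.49 ± 0.13). The Ncl calls in HSC, MPP1 and MPP2 were kept in all 6 fits that left out 1 library, while the MPP4 call (edgeR adjusted p = 0.037) was lost in all 6, with adjusted p from 0.053 to 0.175. The Ncl effect in HSC minus that in MPP4 was 0.49 ± 0.18 with an edgeR adjusted p of 0.17, so the sizes were not shown to differ. The Ncl span also holds 3 annotated snoRNA genes on its own strand, and how their reads were counted is not given in the sources used here.

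Nolc1, a nucleolar scaffold that ferries snoRNPs, had 537, 581 and 521 CPM in Mettl3KO HSC, against 419, 414 and 392 CPM in WT HSC. The groups did not overlap, and the log2 fold change was 0.42 ± 0.12 with an edgeR adjusted p of 0.039. That call was kept in only 1 of 6 fits with a library left out, the one without HSC Mettl3KO library 1, and all Nolc1 counts in the bulk table were even numbers, so fewer independent reads may stand behind each value than the count gives. Npm1 (nucleophosmin), a histone and ribosomal protein chaperone of the granular component, passed the test in no Mettl3KO against WT comparison of sorted cells. It had 628, 778 and 420.4 CPM in Mettl3KO MPP1, against 903, 875 and 1052 CPM in WT MPP1, where the groups did not overlap but the log2 fold change of -0.63 ± 0.24 had an edgeR adjusted p of 0.10. Its log2 fold change was 0.34 in HSC, 0.25 in MPP2 and 0.15 in MPP4. Npm3, Mybbp1a and Gnl3 also passed the test in none of the 4. The 6 chaperones and organizers together summed to 2939 ± 240 CPM in Mettl3KO HSC and 2011 ± 268 CPM in WT HSC (SD, n = 3 each), a sum that Ncl and Npm1 dominate.

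Among the 15 large subunit (60S) assembly factors, 4 passed the test in at least 1 sorted population. Rrs1, which brings the 5S particle into the 60S precursor (a role worked out in yeast), is a gene of 1 exon at chr1:9545408-9547455 (plus strand). It had 142, 96.8 and 142 CPM in Mettl3KO HSC, against 68.5, 55.4 and 71.7 CPM in WT HSC, a log2 fold change of 0.96 ± 0.15. The values in MPP1 were 137, 103 and 117 CPM in Mettl3KO and 61.1, 58.1 and 54.3 CPM in WT, with a log2 fold change of 1.05 ± 0.15. In MPP2 they were 145, 132 and 128 CPM in Mettl3KO, against 79.4, 73.7 and 82.1 CPM in WT (0.79 ± 0.15). No Rrs1 value of a Mettl3KO library fell within the WT range in any of the 4 populations. In MPP4, Rrs1 had 109, 104 and 94.3 CPM in Mettl3KO and 71.4, 66.9 and 66.9 CPM in WT, a log2 fold change of 0.59 ± 0.15. Leaving out 1 library kept the Rrs1 call in all 6 fits in HSC and MPP1, ended it in MPP2 without WT library 2 or Mettl3KO library 1, and ended it in all 6 fits in MPP4.

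Ddx21, an RNA helicase of the nucleolus (chr10:62580251-62602281, minus strand), was higher in 3 populations. It had 79.9, 64.7 and 76.6 CPM in Mettl3KO HSC, against 52.9, 50.9 and 47.8 CPM in WT HSC (log2 fold change 0.55 ± 0.15, edgeR adjusted p = 0.032). It had 65.9, 73.6 and 83.5 CPM in Mettl3KO MPP1, against 46.7, 46.4 and 49.5 CPM in WT MPP1 (0.64 ± 0.15). The genotypes did not overlap in either population. In MPP2 it had 70.3, 91.5 and 70.8 CPM in Mettl3KO, against 47.5, 54.98 and 43.9 CPM in WT (0.67 ± 0.15). With 1 library left out the Ddx21 call was kept in 6 of 6 fits in MPP1, in 2 of 6 in MPP2, and in 1 of 6 in HSC, the fit without Mettl3KO library 2. In MPP2 the calls lost were those without WT library 1 or 3 or Mettl3KO library 1 or 2.

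Nop2, a methyltransferase of the large subunit's ribosomal RNA (chr6:125131909-125144753, plus strand), had 174, 72.9 and 170.0 CPM in Mettl3KO MPP1, against 63.2, 81.6 and 71.5 CPM in WT MPP1. Library 2, the one rich in neutrophil transcripts, fell within the WT range while the other 2 were above it. The log2 fold change was 0.95 ± 0.24 (edgeR adjusted p = 0.019), and the call was lost without WT library 1 or 3 or Mettl3KO library 1 or 3. In HSC, Nop2 had 178, 129 and 154 CPM in Mettl3KO and 95.1, 92.9 and 88.6 CPM in WT, which did not overlap, yet the edgeR adjusted p was 0.072. Rrp1b, a nucleolar protein related to yeast Rrp1, had 129, 128 and 136 CPM in Mettl3KO MPP1, against 98.1, 98.5 and 79.7 CPM in WT MPP1 (0.51 ± 0.15, edgeR adjusted p = 0.042), a call kept in 1 of 6 fits, that without Mettl3KO library 2. The other 11 factors of this group, among them the Pes1, Bop1 and Wdr12 trio of the PeBoW complex, passed the test in no sorted population. The group's log2 fold changes ran from -0.31 (Noc2l) to 0.96 (Rrs1) in HSC, with a median of 0.19.

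Of the 9 factors of the small subunit processome and 40S assembly, Utp20 and Bysl passed the test, each in 1 population. Utp20, a large scaffold of the processome (chr10:88746607-88826804, minus strand), had 15.6, 19.9 and 55.7 CPM in Mettl3KO MPP1, against 10.1, 12.4 and 8.55 CPM in WT MPP1. The groups did not overlap, but library 3 was far above the other Mettl3KO libraries. The log2 fold change was 1.55 ± 0.35 with an edgeR adjusted p of 0.0093, and without that library it was 0.77 with an adjusted p of 0.076. In MPP2 it had 25.4, 32.8 and 23.5 CPM in Mettl3KO and 9.89, 13.4 and 12.1 CPM in WT, again without overlap, at 1.21 ± 0.34 and an edgeR adjusted p of 0.067. Bysl (bystin), needed for late 40S maturation, had 117, 92.6 and 146 CPM in Mettl3KO MPP4, against 72.6, 51.7 and 51.9 CPM in WT MPP4. Its log2 fold change was 1.01 ± 0.21 (edgeR adjusted p = 0.012), and the call was lost without WT library 2 or 3 or Mettl3KO library 3. Bysl (chr17:47599331-47611492, minus strand) overlaps Ccnd3 on the opposite strand, so without a stated use of strand its reads cannot be told from those of Ccnd3. Heatr1, Nob1, Tsr1, Rrp12, Nop14, Noc4l and Wdr43 passed the test in none of the 4 populations.

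Of the 4 box C/D proteins, Nop58, a core protein of these particles, fell in MPP1 to 91.2, 92.7 and 93.6 CPM in Mettl3KO, against 144, 157 and 134 CPM in WT. The groups were well apart, at a log2 fold change of -0.65 ± 0.15 (edgeR adjusted p = 0.010), and the call was lost at an adjusted p of 0.0504 without WT library 2. The methyltransferase Fbl (fibrillarin), Nop56 and the U3-specific Rrp9 passed the test in no sorted population, and Rrp9 was the single member with a negative log2 fold change in all 4, from -0.46 in MPP1 to -0.05 in HSC. The 4 box H/ACA proteins Dkc1 (the pseudouridine synthase dyskerin), Gar1, Nhp2 and Nop10 passed it in none either. Nhp2 had 90.2, 192 and 165 CPM in Mettl3KO HSC, against 103, 49.1 and 93.4 CPM in WT HSC, which overlapped. HSC WT library 2 was also the lowest for Npm1. RNA polymerase I subunits Polr1a and Polr1b passed the test in none of the 4. Nop58 spans 4 annotated snoRNA genes.

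Beyond the calls, 34 of 40 members had a positive log2 fold change in HSC, 22 in MPP1, 38 in MPP2 and 34 in MPP4, while 50.2%, 50.5%, 47.9% and 48.1% of all genes tested did. The median over members was 0.27 in HSC, 0.08 in MPP1, 0.30 in MPP2 and 0.19 in MPP4, beside medians of all genes between -0.02 and 0.01. Of the 40, 18 were positive in all 4 populations. At an unadjusted p under 0.05, 14 members were higher and 0 lower in HSC, 12 higher and 3 lower in MPP1, 11 higher and 0 lower in MPP2, and 7 higher and 0 lower in MPP4. The share of all genes under that unadjusted cut is not given, here or for such counts below, so they show no excess over all genes. The summed level of the 40 members was 6359 ± 403 CPM in Mettl3KO HSC and 4828 ± 544 CPM in WT HSC, and 7424 ± 479 CPM in Mettl3KO MPP2 and 5751 ± 207 CPM in WT MPP2 (SD, n = 3 each). In MPP1 it was 5869, 5068 and 5581 CPM in the Mettl3KO libraries, against 5144, 5205 and 4938 CPM in the WT libraries, with library 2, the one rich in neutrophil transcripts, within the WT range and the other Mettl3KO libraries above it. Without that library, 25 members were positive in MPP1 with a median of 0.14, and 13 were higher and 2 lower at an unadjusted p under 0.05. Without MPP2 WT library 1, 38 were positive in MPP2 with a median of 0.29.

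**Figure D2:**
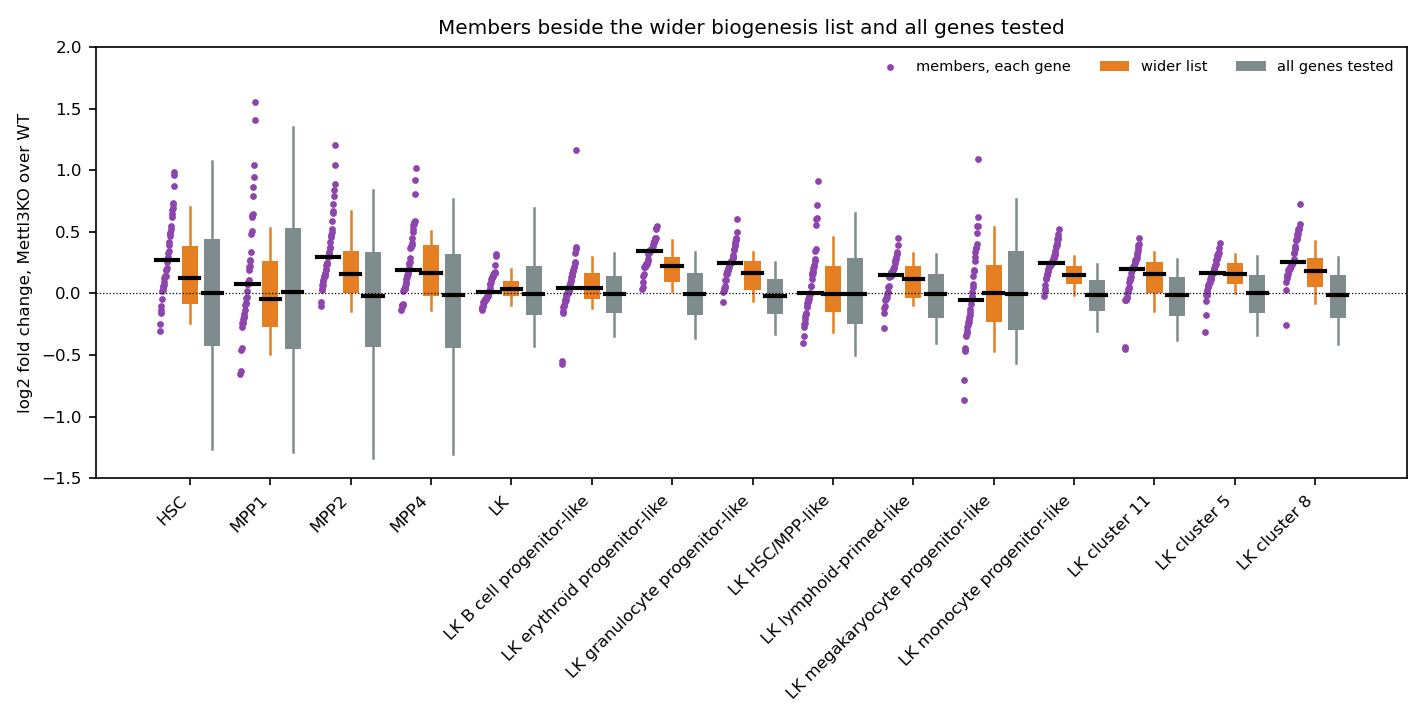
Log2 fold changes (Mettl3KO over WT) of the 40 members as points, beside the wider biogenesis list and all genes tested as boxes (25th to 75th percentile) with lines to the 10th and 90th percentile and black bars at medians, for the sorted populations, LK cells and the classes of LK cells. The member medians lie above those of all genes in the sorted populations, least so in MPP1, and in most classes, with the highest in the erythroid class. They lie near 0 in LK cells as a whole and in the HSC/MPP-like class, and below 0 in the megakaryocyte progenitor-like class.

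The other genes of the pathway were described with a list of 118 further biogenesis factors. In HSC, 14 of them (11.9%, beside 3.66% of all genes) were higher and 0 lower in Mettl3KO, with a median log2 fold change of 0.12. Leaving out 1 library gave 6 to 18 calls, with 6 without WT library 2, 7 without Mettl3KO library 2, 8 without Mettl3KO library 3 and 9 without WT library 3. The 3 with the smallest p were Rrp15 (1.15 ± 0.19), a 60S factor, and Exosc6 (1.12 ± 0.20) and Exosc4 (1.08 ± 0.20), subunits of the RNA exosome that trims pre-rRNA. In MPP1 the shares of 5.08% higher and 4.24% lower lay close to the 4.74% and 3.89% of all genes. The 6 genes higher there were led by the helicases Ddx55 (1.01 ± 0.16) and Ddx24 (0.81 ± 0.15) and by Exosc6 (0.78 ± 0.20), and the 5 lower by Ddx49 (-0.69 ± 0.14), Utp18 (-0.76 ± 0.20) and Rsl24d1 (-0.53 ± 0.15). Without MPP1 Mettl3KO library 2, 7 of the 118 were higher and 4 lower, where 5.9% of all genes were higher and 5.1% lower. In MPP2, 4 were higher, namely Rrp15 (0.91 ± 0.19), Exosc6 (0.87 ± 0.20), Imp3 (1.01 ± 0.23) and Exosc4 (0.80 ± 0.20), and 0 lower, and 0 were called without MPP2 WT library 1, where edgeR gave 21 at an unadjusted p under 0.05, all higher. In MPP4, 0 of 118 passed edgeR's test, where 19 were higher and 1 was lower at an unadjusted p under 0.05. DESeq2 called 5 of the 118 there, and 409 of all genes higher and 649 lower.

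Of 16 lists of cell type markers and cell cycle genes, each taken as its summed CPM, 5 were apart between genotypes in HSC, 5 in MPP1, 4 in MPP2 and 8 in MPP4, with no measured marker at 0 in those lists. The 16 G2/M genes summed to 1383 to 1964 CPM in Mettl3KO HSC, against 722 to 1344 CPM in WT HSC, to 2539 to 3171 in Mettl3KO MPP2, against 2234 to 2432 CPM in WT MPP2, and to 3559 to 4296 in Mettl3KO MPP4, against 2336 to 2971 CPM in WT MPP4. They overlapped in MPP1. The 19 G1/S genes were apart in MPP4 alone, with 4865 to 5842 CPM in Mettl3KO and 3343 to 3530 CPM in WT. The 12 erythroid progenitor markers were lower in Mettl3KO without overlap in all 4 populations, with 623 to 802 CPM in Mettl3KO HSC and 1078 to 1463 CPM in WT HSC. The lymphoid-primed markers were lower in Mettl3KO without overlap in HSC (52.0 to 84.6 CPM in Mettl3KO, against 130 to 483 CPM in WT), in MPP1 (291 to 471 CPM in Mettl3KO, against 716 to 846 CPM in WT) and in MPP2 (386 to 597 CPM in Mettl3KO, against 1162 to 1569 CPM in WT), and higher in MPP4 (2603 to 3304 CPM in Mettl3KO, against 1881 to 2566 CPM in WT). Beside the HSC values above, the 11 HSC/MPP markers were lower without overlap in MPP1, with 3651 to 4397 CPM in Mettl3KO and 5312 to 5936 CPM in WT, and in MPP4, with 1806 to 2048 CPM in Mettl3KO and 2533 to 3740.1 CPM in WT. The 8 B cell progenitor markers were higher without overlap in MPP1, MPP2 and MPP4, with 2073 to 4686 CPM in Mettl3KO MPP4 and 656 to 1127 CPM in WT MPP4. Dendritic markers were lower in HSC, with 170.3 to 398 CPM in Mettl3KO and 532 to 923 CPM in WT, and in MPP4, with 2761 to 3107 CPM in Mettl3KO and 3379 to 7386 CPM in WT. Monocyte progenitor markers were higher in MPP1, with 104 to 217 CPM in Mettl3KO and 50.1 to 91.6 CPM in WT, and in MPP4, with 575 to 886 CPM in Mettl3KO and 384 to 568 CPM in WT. Their part in the results on the members was not tested.

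No member passed the test of a different Mettl3 effect in HSC than in MPP1, MPP2 or MPP4. Of all genes, 0.0386% were called in either direction against MPP1 and 0.00643% against MPP2. Against MPP4, 146 of 15545 genes (0.939%) were called higher in HSC and 95 lower. At an unadjusted p under 0.05, edgeR gave 6, 0 and 3 members in these 3 comparisons. Of the wider list, Twistnb, a subunit of RNA polymerase I, was higher in HSC than in MPP4 by 0.92 ± 0.23 in log2 fold change (edgeR adjusted p = 0.044). These 3 comparisons share the HSC libraries.

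Between WT populations, member calls were found for HSC against MPP4. In WT HSC against WT MPP4, 5 of 40 members were lower and 0 higher, where 6.65% of all genes were lower and 5.4% higher. Npm1 had 841, 460.3 and 919 CPM in WT HSC, against 1365, 1285 and 1238 CPM in WT MPP4 (log2 fold change -0.81 ± 0.24). Nhp2 had 103, 49.1 and 93.4 CPM in WT HSC, against 188, 148 and 168 CPM in WT MPP4 (-1.04 ± 0.31). Neither gene overlapped between the groups. Fbl had 80.3, 70.4 and 82.0 CPM in WT HSC, against 120.5, 108 and 105 CPM in WT MPP4 (-0.52 ± 0.16), and Dkc1 had 135, 116 and 129 CPM in WT HSC, against 182, 178 and 154 CPM in WT MPP4 (-0.44 ± 0.14). Nop56 was the remaining member lower (-0.40 ± 0.13). All 5 calls were lost without HSC WT library 2 and also without any 1 of the 3 MPP4 WT libraries. Leaving out HSC WT library 1 ended those of Nop56, Fbl and Dkc1, and leaving out HSC WT library 3 those of Fbl, Dkc1 and Nhp2. In WT HSC against WT MPP2, 0 members were called, where 1.4% of all genes were higher and 2.51% lower, and at an unadjusted p under 0.05 edgeR gave 5, all lower. In WT HSC against WT MPP1, 0 members and 0.0257% of all genes were called. The G1/S genes summed to 2122 to 2344 CPM in WT HSC, against 3343 to 3530 CPM in WT MPP4, and the G2/M genes were likewise lower in WT HSC. Their part in the result was not tested.

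In LK cells summed per library, Ncl and Nop2 were the 2 of 40 members (5%) higher in Mettl3KO and 0 were lower. Of 13071 genes tested, 13.7% were higher and 1140 were lower, so the share of members higher was below that of all genes. Ncl had 1241, 1349 and 1261 UMI CPM in Mettl3KO, against 1033, 1074 and 978 in WT (log2 fold change 0.32 ± 0.07, edgeR adjusted p = 0.019). Nop2 had 41.0, 40.05 and 41.4 in Mettl3KO, against 31.6, 35.6 and 31.8 in WT (0.31 ± 0.07, edgeR adjusted p = 0.018). The genotypes did not overlap for either gene. The Ncl call was lost without Mettl3KO library 2 or 3 or WT library 1, and the Nop2 call without Mettl3KO library 1 or 3 or WT library 1. Both were kept without WT library 3, the one rich in neutrophil-like cells. Of the 40, 21 had a positive log2 fold change, with a median of 0.01, and 18 with a median of -0.0071 without WT library 3. Of 116 wider factors, 8 (6.90%) were higher and 0 lower, a share below the 13.7% of all genes higher. Without WT library 3, 6 of the wider factors were higher and 0 lower. LK cells of the genotypes differed in their makeup: the erythroid progenitor list summed to 1329 to 2226 in Mettl3KO, against 3622 to 4951 in WT, and the B cell progenitor list to 1428 to 2575 in Mettl3KO, against 292 to 576 in WT.

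LK cells were clustered without the members, without the wider list and without Mettl3, and 10 classes had at least 50 cells in each library. In WT cells, the 40 members summed to 12625 ± 44.3 UMI CPM in cluster 5, whose leading genes include Car1 and Klf1, to 9097 ± 299 in erythroid progenitor-like cells and to 5906 ± 71.1 in granulocyte progenitor-like cells, the lowest of the 10 (SD, n = 3 each). Over the 10 classes the test gave 58 calls of members, 22 members were higher in at least 1 class, 8 were lower in at least 1 and 12 passed in none. These 58 calls were 14.9% of the members' tests, beside 7.12% of all genes' tests. Of them, 25 (15 higher and 10 lower) were in the HSC/MPP-like and megakaryocyte progenitor-like classes, where 28.6% of all tests were called and where the genotypes lay in different clusters. The other 8 classes gave 33 calls, all higher, which were 10.6% of the members' tests there, beside 1.68% of all genes' tests. Leaving out 1 library gave 20 to 38 calls in all, with 20 without Mettl3KO library 1, 28 without WT library 2, 34 without Mettl3KO library 3 or WT library 3, 36 without Mettl3KO library 2 and 38 without WT library 1, and coarser clusters gave 31. Nhp2 was higher in 8 classes and Ncl in 7, and 11 of the 40 members passed the test in neither a sorted population nor a class. Ncl, Gar1, Nhp2, Ddx21, Mybbp1a and Gnl3 had positive log2 fold changes in all 10. Mettl3 itself passed the test in the HSC/MPP-like (-1.60) and megakaryocyte progenitor-like (-1.42) classes, and its log2 fold change was between -0.72 and -0.24 in the other 8.

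**Figure D3:**
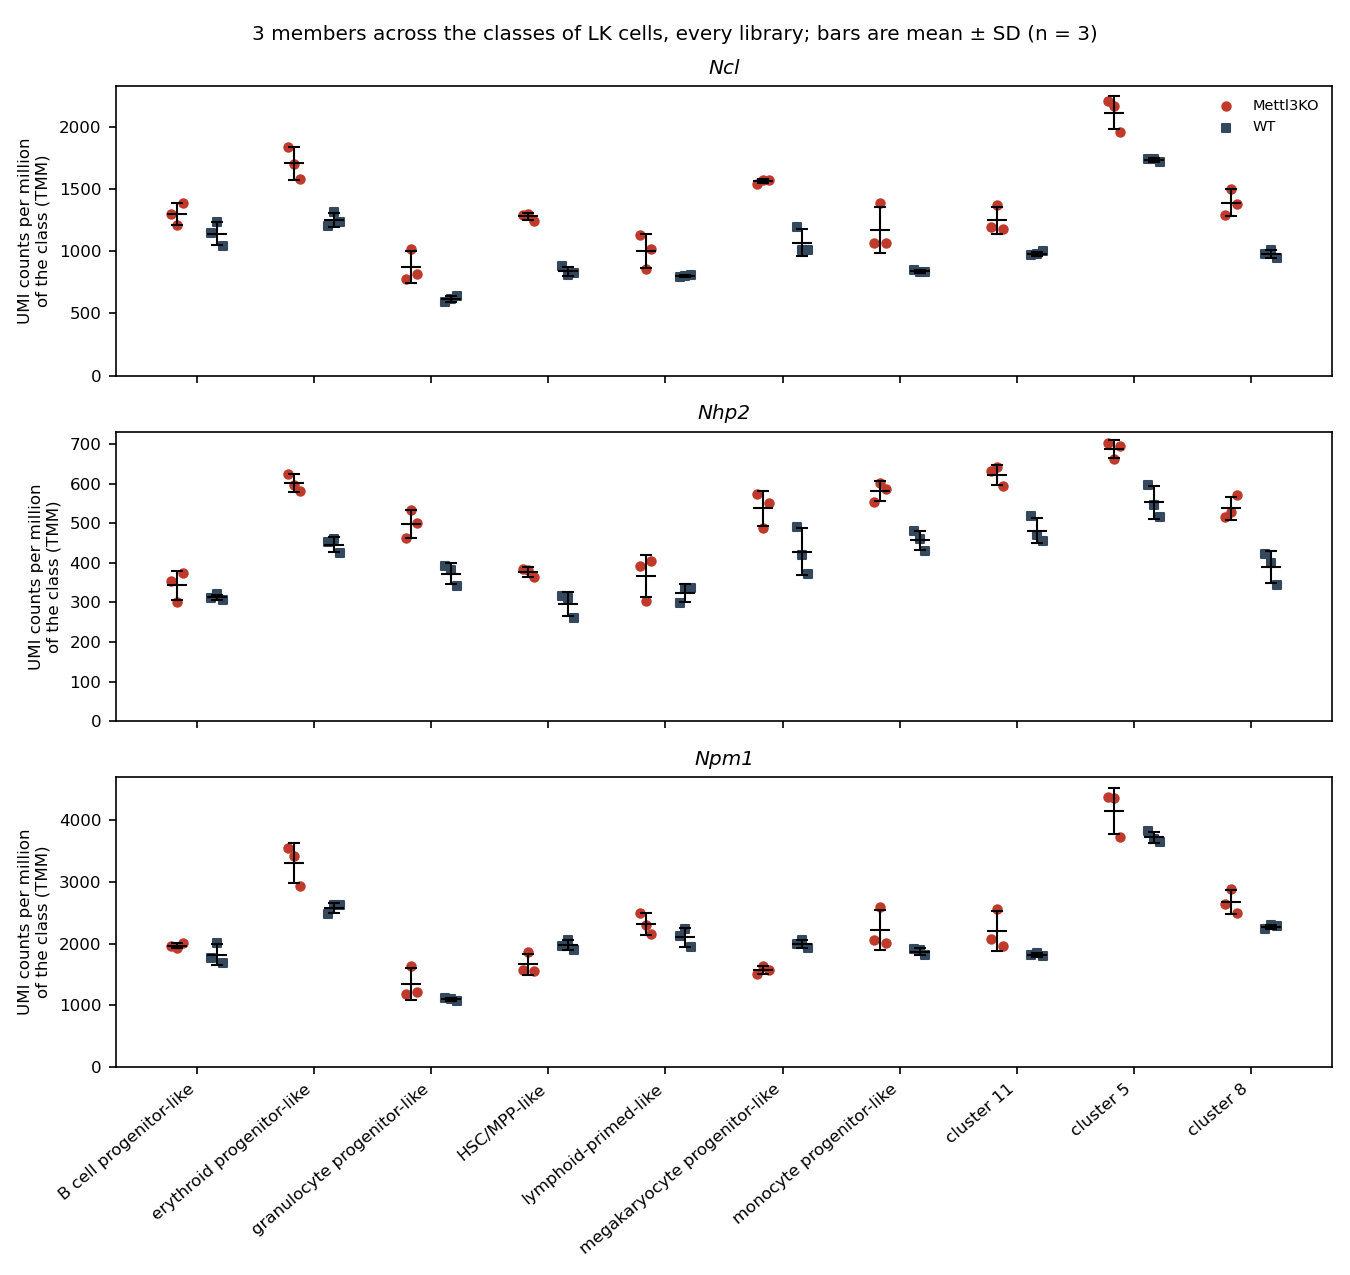
UMI CPM of Ncl, Npm1 and Nhp2 in the 10 classes of LK cells, with Mettl3KO left of WT, each point a library and bars the mean ± SD (n = 3). Ncl and Nhp2 lie above WT in Mettl3KO in most classes, while Npm1 is lower in Mettl3KO in the HSC/MPP-like and megakaryocyte progenitor-like classes.

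Erythroid progenitor-like cells had the largest number of members higher of the 10 classes. Of the 40, 13 were higher and 0 lower, where 2.24% of 8519 genes were higher and 102 lower. All 40 had a positive log2 fold change, with a median of 0.34. Ddx21 had 265, 251 and 236 UMI CPM in Mettl3KO, against 191, 159.8 and 164 in WT (0.54 ± 0.09, edgeR adjusted p = 0.0078). Nhp2 had 625, 595 and 582 in Mettl3KO and 454, 459 and 425 in WT (0.43 ± 0.08), and Rrp9 had 68.4, 60.8 and 58.9 in Mettl3KO and 45.2, 40.8 and 43.4 in WT (0.53 ± 0.11). Npm1 had 3552, 3427 and 2941 in Mettl3KO, against 2482, 2625 and 2627 in WT (0.36 ± 0.08). None of these 4 overlapped between genotypes. Ncl, Nop2, Gar1, Nolc1, Wdr12, Wdr74, Ddx18, Ppan and Nip7 were the other members higher, with log2 fold changes from 0.32 to 0.52. Of 116 wider factors, 8 were higher and 0 lower, led by Pno1 (0.49 ± 0.08), Ftsj3 (0.43 ± 0.08) and Gtpbp4 (0.44 ± 0.09).

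The erythroid count rests on few cells, 61, 83 and 159 in the Mettl3KO libraries and 264, 298 and 243 in the WT libraries. It was 0 without Mettl3KO library 1 and 6 or 7 without any other single library. In this class the G1/S genes were lower, with 3956 to 4020 in Mettl3KO and 4519 to 4613 in WT, and the 12 erythroid markers were lower, with 11281 to 15685 in Mettl3KO and 18056 to 18909 in WT, both without overlap and with no marker at 0. The 8 neutrophil markers summed to 120 to 804 in Mettl3KO and 349 to 7156 in WT. Their part in the result was not tested.

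Other classes gave fewer calls. Monocyte progenitor-like cells had 5 members higher and 0 lower, Ncl, Gnl3, Nhp2, Nop2 and Rrp9, where 0.493% of 10135 genes were higher and 33 lower. Of the 40 members, 39 were positive there with a median of 0.25. Ncl had 1069, 1387 and 1067 in Mettl3KO, against 850.2, 830.4 and 834 in WT (0.49 ± 0.09). Granulocyte progenitor-like cells had Ncl (0.50 ± 0.10) and Nhp2 (0.42 ± 0.08) higher, where 0.161% of all genes were. Cluster 8, led by Cd34 and Flt3, had 8 higher, Ncl, Nhp2, Nolc1, Rrp1b, Bysl, Ddx21, Mybbp1a and Gnl3, where 1.84% of all genes were. Ncl had 1289, 1506 and 1379 there in Mettl3KO, against 976, 1014 and 946 in WT (0.51 ± 0.08). Cluster 11, led by Prg2 and Epx, had Ncl, Gar1 and Nhp2 higher, where 0.455% were, and cluster 5 had Nhp2 (0.31 ± 0.08) and Bop1 (0.41 ± 0.11) higher, where 2.1% were. B cell progenitor-like and lymphoid-primed-like cells had 0 members called, where 0.426% and 0.237% of all genes were called in either direction. At an unadjusted p under 0.05, edgeR gave 5 and 4 members there, all higher. With coarser clusters, members were called in lymphoid-primed-like cells, as given in the closing section, so the absence of calls depended on the clustering. Leaving out 1 library gave 0 to 2 calls in monocyte progenitor-like cells, 0 to 2 in granulocyte progenitor-like cells, 3 to 6 in cluster 8, 0 to 4 in cluster 11 and 0 to 2 in cluster 5. Every one of the 6 libraries ended at least 1 call in these classes. Of the wider list, 6 of 115 (5.22%) were higher in cluster 8 and 5 of 116 (4.31%) in cluster 5, with 0 lower in either. None of the wider list passed the test in the other classes named in this paragraph.

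Marker and cell cycle lists were apart between genotypes in each of these classes. In granulocyte progenitor-like cells, G2/M genes were higher (1606 to 1853 UMI CPM in Mettl3KO, against 1332 to 1516 in WT) and granulocyte progenitor markers lower (45806 to 52649 in Mettl3KO, against 54847 to 59243 in WT), among 7 of 16 lists without overlap. In monocyte progenitor-like cells 9 of 16 were apart, among them monocyte progenitor markers (1469 to 1642 in Mettl3KO, against 1720 to 1801 in WT). In cluster 8, where 8 were apart, G2/M genes summed to 2361 to 2451 in Mettl3KO, against 2478 to 2601 in WT. In cluster 11, where 5 were apart, granulocyte progenitor markers summed to 31460 to 36058 in Mettl3KO, against 37104 to 39434 in WT, and in cluster 5, where 6 were apart, erythroid progenitor markers summed to 6751 to 7227 in Mettl3KO, against 8369 to 10651 in WT. Their part in the results on the members was not tested.

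The HSC/MPP-like and megakaryocyte progenitor-like classes were made of different clusters in the genotypes. The HSC/MPP-like class joined cluster 1, with 1027, 319 and 821 cells in Mettl3KO libraries and 7, 2 and 5 in WT libraries, and cluster 7, with 104, 67 and 104 in Mettl3KO libraries and 327, 315 and 356 in WT libraries. Over both, 6 members were higher (Ncl, Rrs1, Nop2, Nhp2, Bysl and Tsr1) and 3 lower (Npm1, Npm3 and Nop58), where 14.8% of all genes were higher and 12.2% lower. Of 116 wider factors, 18 (15.5%) were higher and 7 (6.03%) lower. Ncl had 1296, 1302 and 1246 in Mettl3KO, against 881, 811 and 827 in WT (0.61 ± 0.08). Npm1 had 1569, 1856 and 1554 in Mettl3KO, against 1959.9, 2059 and 1896 in WT (-0.25 ± 0.09), without overlap. Within cluster 7 alone, an analysis added after the data were seen, 4 members were higher (Ncl, Npm3, Nhp2 and Nolc1) and 0 lower. Of 7601 genes tested there, 3.8% were higher and 156 lower. Of 39 members tested, 36 were positive with a median of 0.26. There Npm1 had 2262, 2673 and 2242 in Mettl3KO, against 1972, 2052 and 1877 in WT, a log2 fold change of 0.28 with an edgeR adjusted p of 0.078, and Npm3 was higher by 0.33.

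The megakaryocyte progenitor-like class joined cluster 12, with 356, 156 and 327 cells in Mettl3KO libraries and 1, 0 and 0 in WT libraries, and cluster 19, with 13, 12 and 17 in Mettl3KO libraries and 149, 137 and 176 in WT libraries. Of 39 members tested, 9 were higher and 7 lower, where 16.3% of all genes were higher and 14.1% lower. Of 113 wider factors, 12 (10.6%) were higher and 14 (12.4%) lower. Ncl had 1545, 1577 and 1578 in Mettl3KO, against 1197, 1007 and 1007 in WT (0.55 ± 0.10), and Nop58 had 185, 227 and 192 in Mettl3KO, against 308, 327 and 344 in WT (-0.71 ± 0.10). The megakaryocyte progenitor markers summed to 2441 to 2726 in Mettl3KO, against 8126 to 11184 in WT, and 10 of 16 lists were apart in this class, as were 11 in the HSC/MPP-like class. Their part in the results was not tested. With clusters drawn at a coarser resolution, 0 members were called in this class and 7 log2 fold changes turned sign.

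**Figure D4:**
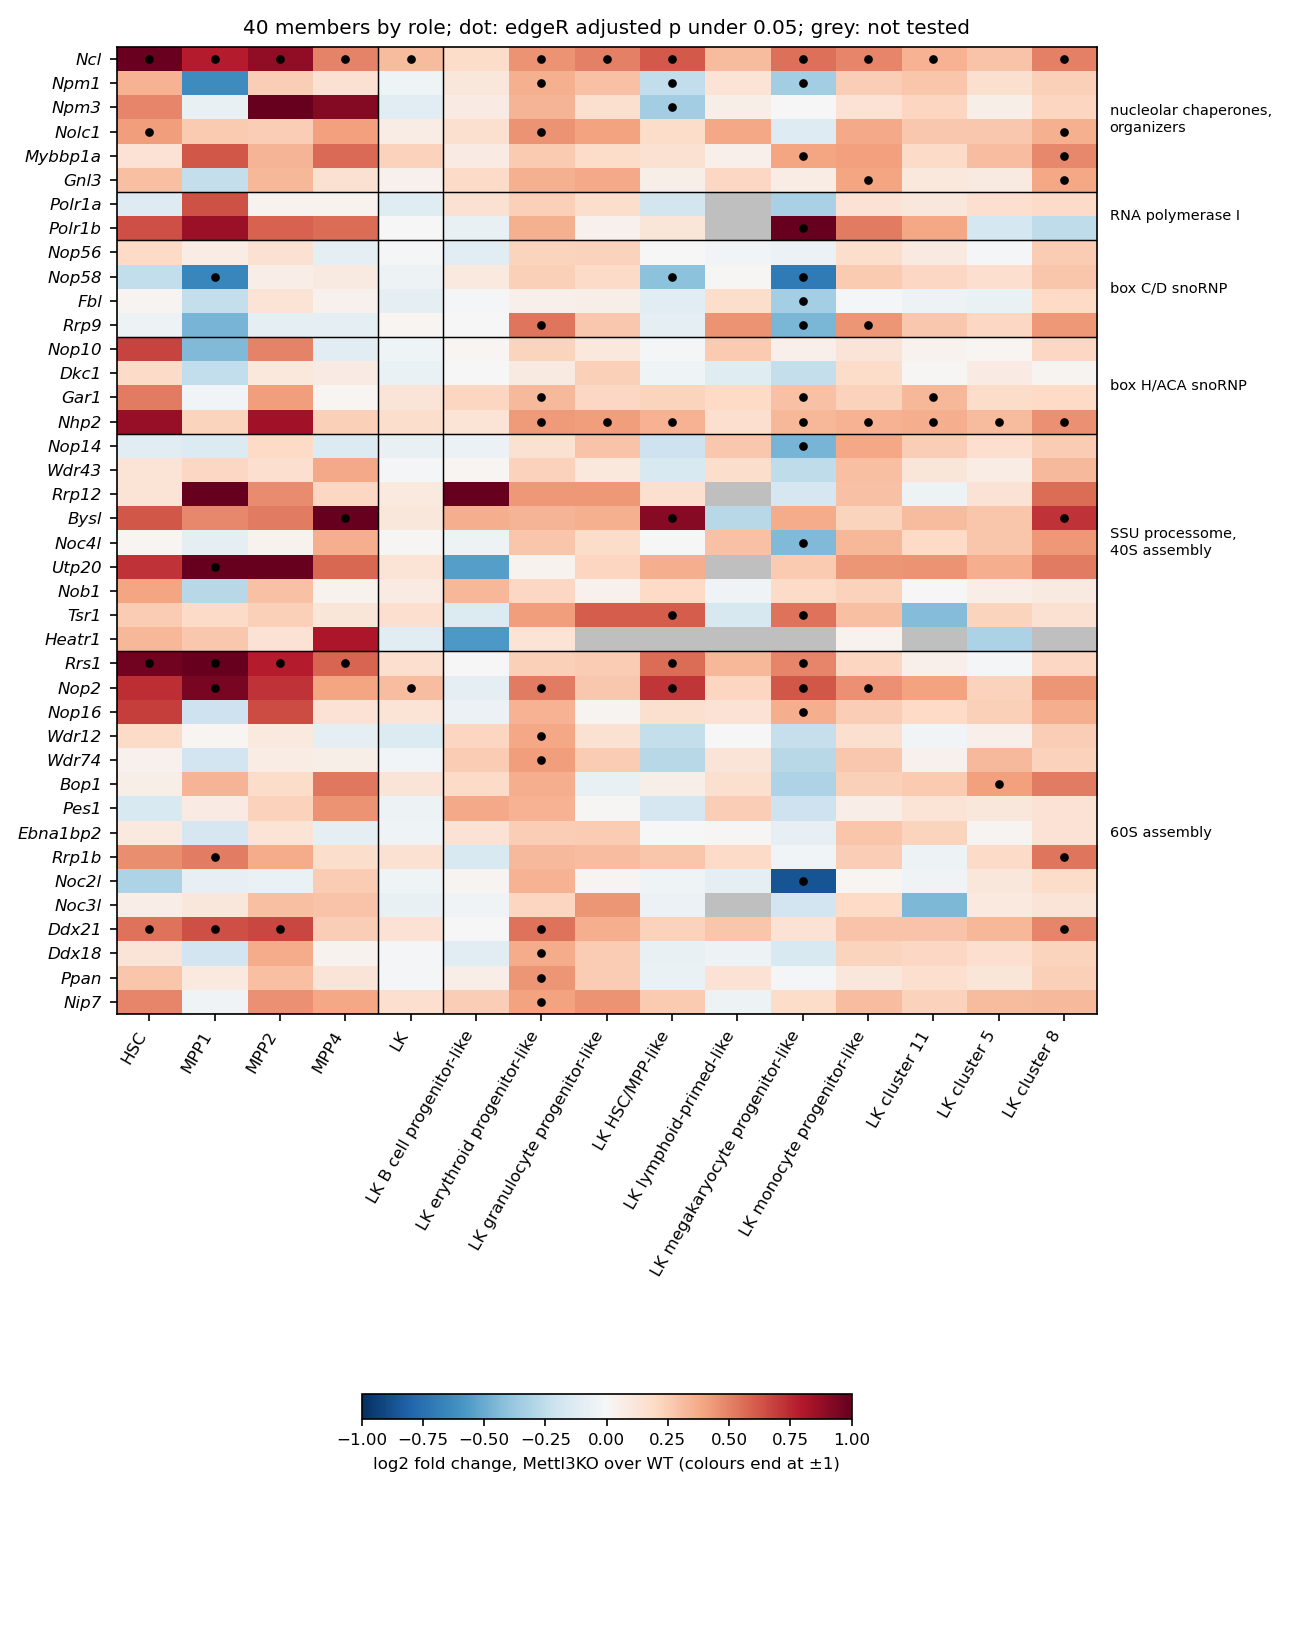
Log2 fold change (Mettl3KO over WT) of the 40 members, ordered by role, in the sorted populations, in LK cells and in the 10 classes of LK cells, with dots at an edgeR adjusted p under 0.05 and grey where a gene was not tested. Ncl is called in most columns, the erythroid column is positive for all 40, and calls in both directions stand in the HSC/MPP-like and megakaryocyte progenitor-like columns.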

How the data were processed

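The deposited bulk table, named as FPKM, held whole numbers with unequal totals, so its values were taken as counts that the authors had not normalized, and the deposited single-cell (10x) values were UMI counts for each gene in each cell, whose column name gives its library. Per the labels, polyA RNA was amplified with SMARTer and read as paired 50 bp reads on a HiSeq2000. Tools named in the submitters' processing notes are TopHat, Bowtie and Cell Ranger 2.2, and the builds named there are GRCh37 and mm10. The sources used here do not give their roles, the annotation, the counting tool, its strand setting or its treatment of multiply mapped reads, so overlapping genes are uncertain. No column of values was left unused.

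Bulk counts were fitted in R 4.3.3 with edgeR 4.0.16 (glmQLFit and glmQLFTest, filterByExpr, TMM, 8 group means, 16 residual degrees of freedom), with Benjamini-Hochberg adjustment over all genes tested within a comparison and a threshold of 0.05. CPM are on TMM-adjusted totals, and an SE is the log2 fold change divided by the square root of F. Cells with over 10% mitochondrial UMIs (297) were removed, 2000 variable genes were reduced to 30 principal components, and cells were clustered by Leiden (leidenalg 0.10.2, resolution 1, 20 neighbours, Python 3.11.15). Clusters took a name from 14 marker lists if, for the best list, the mean log2 fold reached 1, 3 or more markers were up 2-fold or more, and no other list held as many of the 10 leading genes. Doublets were neither called nor removed. UMIs were summed per library and class and fitted with the same test over 6 libraries, 1 fit per class. Each p rests on the spread between libraries within groups, pooled over all 8 groups of the bulk fit or over both groups of an LK fit, and moderated across genes. The labels do not state whether populations share mice, so the 16 residual degrees of freedom may not be independent. With 3 against 3 libraries an exact permutation p is 0.1 at the smallest, so no such test was run on single genes. Members that share a symbol in both tables were matched by symbol. Coordinates are GENCODE vM21 on GRCm38, 1-based, and promoters RefSeq.

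The members and lists were chosen with earlier results of these data known. Values in each library are given for called members, at most the 8 with the smallest p per comparison, for the 4 such members in a comparison of WT populations, and for members called in the most populations, and from the wider list the 3 called genes with the smallest p per direction. Members given beyond this rule were chosen after their values were seen. Alternatives were DESeq2 1.42.0, another normalization, no filter, library quality weights (limma 3.58.1), only the libraries compared, a replicate block, leaving out each library and a coarser clustering. The edgeR test, its replicate block, DESeq2 and quality weights were checked on simulated data for HSC Mettl3KO against WT and for LK cells as a whole. That check covered the sign and the median size of known changes. Differences between effects, comparisons of WT populations, the classes and the remaining fits were not simulated.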

Additional observations from a re-analysis of the deposited data

Results flagged for a closer look

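Npm1 and Rrp9 changed in opposite directions in different classes of LK cells, with an adjusted p under 0.05 by edgeR and no overlap between genotypes in each class named. Npm1 had a log2 fold change (Mettl3KO over WT) of 0.36 in erythroid progenitor-like cells, of -0.25 in HSC/MPP-like cells and of -0.35 in megakaryocyte progenitor-like cells. Rrp9 had one of 0.53 in erythroid progenitor-like cells, 0.44 in monocyte progenitor-like cells and -0.46 in megakaryocyte progenitor-like cells. The difference between classes was not tested. The HSC/MPP-like and megakaryocyte progenitor-like classes were made mostly of different clusters in the genotypes, and within cluster 7 alone the Npm1 value was 0.28. With coarser clusters no member was called in the megakaryocyte progenitor-like class and the values there were 0.25 for Npm1 and -0.036 for Rrp9, so the opposite direction of Npm1 did not hold under either.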

How the results depend on the processing

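Calls of members, those of Ncl and Rrs1 included, depended on the fit, and the causes were not tested except where stated. With library quality weights the members higher were 9 in HSC, 3 in MPP1, 9 in MPP2 and 6 in MPP4, and those lower in WT HSC were 2 against WT MPP2 and 8 against WT MPP4. With only the libraries compared in the fit, which leaves fewer residual degrees of freedom, 1 was higher in HSC (Ncl, while Rrs1 lost its call), 0 were higher and 0 lower in MPP1, so both lost theirs there, and 3 were lower in WT HSC against WT MPP4. DESeq2 called 5 members higher in MPP4, 1 lower in WT HSC against WT MPP2 and 8 against WT MPP4, 9 in megakaryocyte progenitor-like cells and 5 in cluster 8, and of the wider list 17 in MPP1, 9 in MPP2 and 5 in MPP4. Over all genes, DESeq2 called 409 higher and 649 lower in MPP4, where edgeR called 160 and 327. It called 1252 higher and 1078 lower in MPP1, where edgeR called 737 and 605. In MPP2 it called 482 higher and 502 lower, where edgeR called 234 and 150. In WT HSC it called 870 lower against WT MPP2 and 1648 lower against WT MPP4, where edgeR called 390 and 1033. In cluster 8 it called 83 higher and 25 lower, where edgeR called 156 and 130. In megakaryocyte progenitor-like cells it called 922 higher and 743 lower, where edgeR called 1311 and 1130. The share of all genes called is not given for quality weights, only the libraries compared, no filter on low counts, a replicate block or coarser clusters. Nor is it given for fits with a library left out, except those without MPP1 Mettl3KO library 2 or MPP2 WT library 1. Counts of calls without that share have no background beside them, so a loss of member calls cannot be told from a general loss of calls. Without a filter on low counts 2 were lower in WT HSC against WT MPP4. The replicate block gave 3 there (Npm1, Dkc1 and Nhp2, and 3 also by genotype), 0 in LK cells, 7 in erythroid progenitor-like cells, 0 in clusters 11 and 5, 3 in cluster 8 and 5 of the wider list in LK cells, and it changed no other count of calls by more than 1.5 times. Deviations of same-numbered Mettl3KO and WT libraries correlated at 0.054 or less in the 48 pairs of sorted libraries and at -0.059 or less in the 3 pairs of LK libraries, so the numbers did not pair the genotypes. Within WT they correlated at 0.052 to 0.25, over 0.1 in 12 of 18 pairs, and for HSC and MPP4 at 0.092 to 0.14, where all 6 libraries correlated best with their own number. That is a hint from the data that WT numbers mark shared samples, which the labels do not state and which was short of the 0.1 set for every pair. Within Mettl3KO, same-numbered sorted libraries correlated at -0.090 to 0.23, over 0.1 in 4 of 18 pairs. With coarser clusters the calls were 1 in granulocyte progenitor-like, 12 in lymphoid-primed-like and 0 in megakaryocyte progenitor-like cells, and 31 over all classes. In the last class the log2 fold changes that turned sign became -0.052 for Rrs1, 0.25 for Npm1, 0.057 for Nop58, 0.25 for Nop14, 0.14 for Fbl, 0.0058 for Noc2l and 0.16 for Noc4l. In cluster 7 alone the HSC/MPP-like calls were 4, and Npm1 (0.28), Npm3 (0.33) and Nop58 (0.32) turned sign. The other E-box letters occurred in 22.9% of member promoters. Leaving out 1 library gave 2 to 5 members higher in HSC, 3 to 9 higher and 0 to 2 lower in MPP1, 1 to 3 in MPP2, 0 to 1 in MPP4, 0 to 2 lower in WT HSC against WT MPP4, 0 to 2 higher in LK cells, 20 to 38 calls over all classes, 0 to 7 in erythroid, 0 to 2 in granulocyte, 5 to 10 in HSC/MPP-like, 7 to 15 in megakaryocyte and 0 to 2 in monocyte progenitor-like cells, 0 to 4 in cluster 11, 0 to 2 in cluster 5 and 3 to 6 in cluster 8. The wider list then gave 6 to 18 in HSC, 4 to 12 in MPP1, 0 to 4 in MPP2, 0 to 1 in MPP4 and 2 to 6 in LK cells. Over single members, 253 of the values with a library left out kept their call and 239 lost it, and none of these turned sign.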
